A study of Mus musculus with 9 samples.

Results

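Of the genes that sense microbial and damaged-cell molecules, 8 were followed here in the mouse thalamus after photothrombotic stroke, in which light on a circulating dye closes blood vessels. They are the Toll-like receptor genes Tlr1, Tlr2, Tlr4, Tlr7, Tlr9 and Tlr13, the co-receptor gene Cd14 and the adaptor gene Myd88. The 8 genes were chosen by name, and each name stood on 1 gene identifier, among 4277 genes that the authors listed in either of their 2 comparisons. RNA was taken from thalamic tissue of wild-type C57/BL mice on day 7, with 3 samples in each of the groups mmpp, stroke and sham. All 3 groups share tissue, genotype and day. The labels do not spell out mmpp, do not say which group received the melanin nanozyme (particles that act like enzymes) and give no age. Nor is it stated that samples came from separate animals, so the p-values rest on differences among the samples, which could be technical in part.

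The values are the authors' group means in TPM, a measure of transcript share that is scaled by gene length, with their log2 fold change, p-value and q-value (p adjusted over all genes tested). No value per sample was analysed here, so neither the spread within a group nor the depth of a library is known, and no error can be put on a mean or a fold. The words rose and fell are used for genes with a q-value under 0.05, and other genes in the tables are called listed. The tables hold only genes with an unadjusted p under 0.05 that differ at least 2-fold, so an unlisted gene may have failed one of these limits or have been left untested. The tissue label was checked against thalamic neuron genes: Gbx2 had mean levels of 11.1 TPM in stroke and 36.2 TPM in sham, and Tcf7l2 of 24.0 TPM in stroke and 64.4 TPM in sham, in the authors' deposited table.

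Toll-like receptors recognise conserved molecules of microbes and some molecules released by damaged cells. Those at the cell surface (TLR1, TLR2, TLR4) bind mainly lipid-bearing ligands, and those in endosomes (TLR7, TLR9, TLR13) bind nucleic acids. On binding, most of them recruit the adaptor MyD88, which starts a kinase relay that ends in NF-kappaB and interferon regulatory factors and in the transcription of cytokines. In the brain these receptors are found mostly on microglia, the resident phagocytes, and on macrophages.

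All 8 genes rose in stroke against sham. Of all 20804 genes in the authors' adjustment, 9.67% were listed as higher with a q-value under 0.05. The genes had earlier been noted in these data, so that share is a background and not a test. Their log2 fold changes ran from 1.45 for Myd88 to 5.03 for Tlr13, with a median of 3.40 for the 8 genes, against 2.34 for all 2469 genes listed higher in the authors' deposited table. Summed over the 8 genes, the mean level was 162 TPM in stroke and 19.2 TPM in sham. In mmpp against stroke only Tlr4 and Tlr9 were listed, both lower and neither with a q-value under 0.05.

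**Figure D1:**
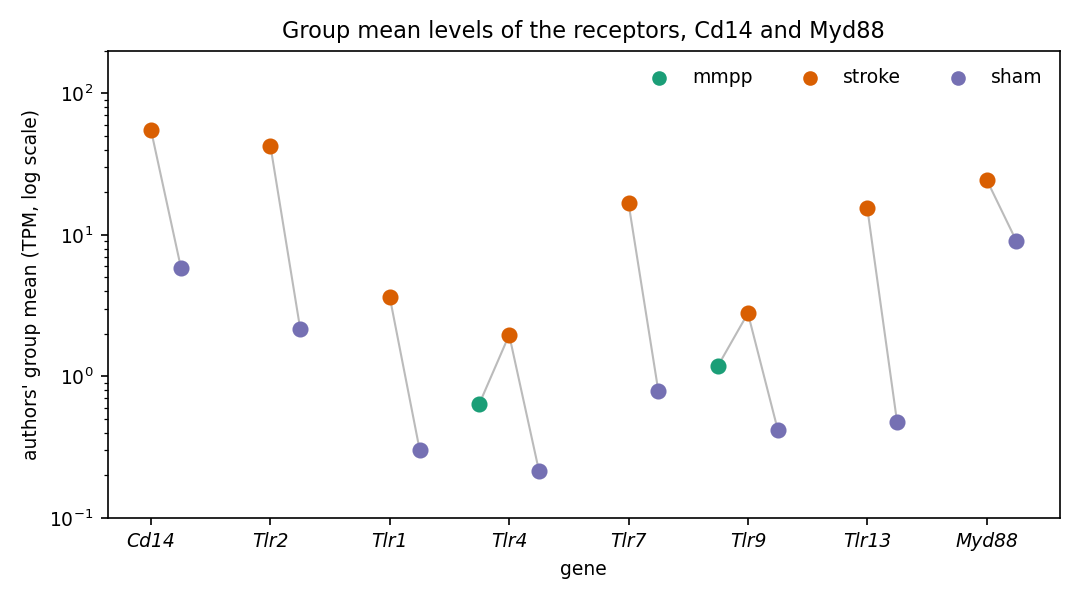
Mean TPM of each gene (log axis) in the authors' tables, with mmpp, stroke and sham from left to right; each point is a mean of 3 samples, with no error available, and mmpp is drawn only for the genes listed in that comparison. Every stroke mean lies above its sham mean, and the mmpp means of Tlr4 and Tlr9 (0.640 and 1.19 TPM) lie between them.

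The stretch of 250 bases before the annotated start is shown for 5 of the 8 genes, because these genes rose together. Windows were used for Tlr1, Tlr2, Tlr9, Tlr13 and Myd88, which are 5 of the 8 genes, and none for Tlr4, Tlr7 or Cd14. The sequences are RefSeq's, on build GRCm38.p6, matched by gene symbol and read 5′ to 3′ on the gene's strand. The windows are chr3:83841609-83841858 on the minus strand for Tlr2, chr5:64933559-64933808 on the minus strand for Tlr1, chr9:106222348-106222597 on the plus strand for Tlr9, chrX:106143025-106143274 on the plus strand for Tlr13, and chr9:119340019-119340268 on the minus strand for Myd88. Capitals mark matches on either strand to 4 motifs, which were picked after the sequences had been seen.
Tlr2: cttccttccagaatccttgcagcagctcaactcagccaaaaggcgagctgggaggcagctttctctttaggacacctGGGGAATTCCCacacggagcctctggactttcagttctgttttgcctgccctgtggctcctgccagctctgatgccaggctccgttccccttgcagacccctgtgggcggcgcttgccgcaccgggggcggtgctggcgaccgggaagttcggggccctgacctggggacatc
Tlr1: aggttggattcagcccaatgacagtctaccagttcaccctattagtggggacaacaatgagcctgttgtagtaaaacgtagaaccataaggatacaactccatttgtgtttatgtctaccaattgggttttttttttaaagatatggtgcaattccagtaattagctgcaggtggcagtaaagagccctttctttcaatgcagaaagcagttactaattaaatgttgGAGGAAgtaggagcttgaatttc
Tlr9: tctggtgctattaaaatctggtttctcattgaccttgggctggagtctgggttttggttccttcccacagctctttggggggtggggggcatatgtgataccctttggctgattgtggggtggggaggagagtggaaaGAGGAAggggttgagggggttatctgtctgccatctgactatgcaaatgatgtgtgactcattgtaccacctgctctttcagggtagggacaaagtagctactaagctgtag
Tlr13: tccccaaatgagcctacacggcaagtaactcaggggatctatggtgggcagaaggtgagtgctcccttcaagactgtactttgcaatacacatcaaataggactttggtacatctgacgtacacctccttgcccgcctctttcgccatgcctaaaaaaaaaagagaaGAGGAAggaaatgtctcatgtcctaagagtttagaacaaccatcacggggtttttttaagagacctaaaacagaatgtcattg
Myd88: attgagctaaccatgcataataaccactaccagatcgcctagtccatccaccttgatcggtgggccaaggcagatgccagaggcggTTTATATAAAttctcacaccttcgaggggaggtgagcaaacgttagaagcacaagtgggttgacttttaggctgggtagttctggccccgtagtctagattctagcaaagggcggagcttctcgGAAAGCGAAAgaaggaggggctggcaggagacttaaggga
The hexamer GAGGAA, a purine-rich core bound by the myeloid factor PU.1 and other ETS factors, ended 18 bases before the start of Tlr1, 107 before that of Tlr9 and 78 before that of Tlr13. It stood in 23.3% of all 32851 windows of this length. Tlr2 held a match to the NF-kappaB consensus on both strands, with overlapping matches 173 to 163 bases before the start, and 7.25% of all windows held that consensus. Myd88 held the pattern of an interferon response element, GAAA, any 2 bases and GAAA again, 40 to 31 bases before its start, and 2.98% of all windows did. It also held TATAAA in overlapping matches on both strands, 164 to 155 bases before the start, as 12.4% of all windows held it somewhere. A second annotated start of Tlr1 had none of the 4 motifs. A match shows letters only and was not tested for binding.

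**Figure D2:**
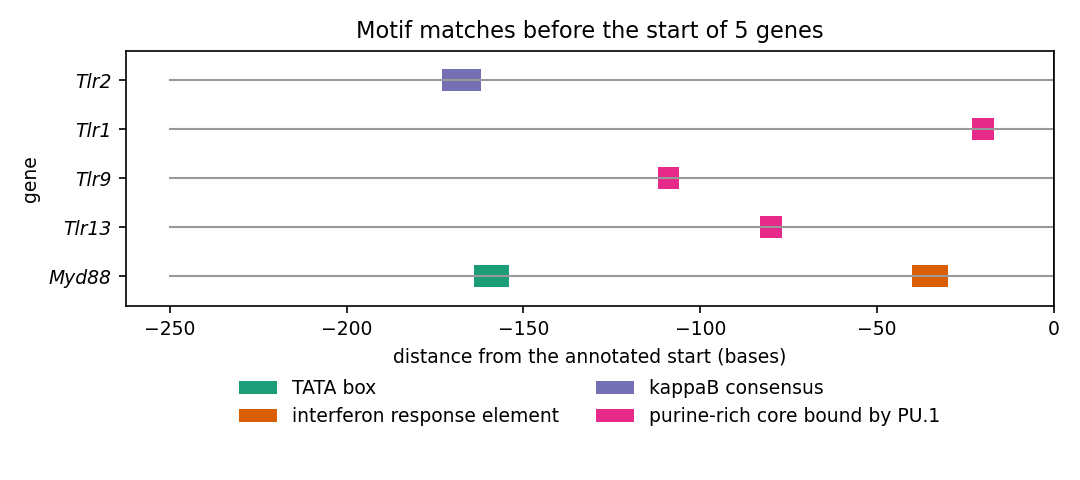
Places of motif matches in the 250 bases before the annotated start (distance in bases, start at 0) of 5 genes; coloured blocks are matches on either strand. The purine-rich core appears in Tlr1, Tlr9 and Tlr13, and the kappaB consensus in Tlr2. Myd88 holds the pattern of an interferon response element and the hexamer TATAAA, which the key calls a TATA box.

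Receptors of the cell surface rose between 9.15-fold and 19.7-fold. Tlr2, which pairs with TLR1 or TLR6 to bind bacterial lipoproteins, had mean levels of 42.5 TPM in stroke and 2.15 TPM in sham in the authors' deposited table, a log2 fold change of 4.30 (q = 2.74e-12). Tlr1 had means of 3.61 TPM in stroke and 0.302 TPM in sham in the authors' deposited table, 11.95-fold higher (log2 fold change 3.58, q = 8.73e-09). Its close relative Tlr6, the other partner of TLR2, had 3.07 TPM in stroke and 0.195 TPM in sham (log2 fold change 3.98, q = 1.13e-09, authors' deposited table). The mean level of Tlr2 was thus 11.7 times that of Tlr1 in stroke and 7.11 times in sham. Reads of the Tlr1 and Tlr6 pair can be hard to assign: 15.4% of the 50-base windows of annotated Tlr1 transcripts also stood in transcripts of other genes, most of them in Tlr6, with the handling of such reads not given in the sources used here. Tlr4, the receptor for bacterial lipopolysaccharide, was the lowest of the 8, with 1.96 TPM in stroke and 0.214 TPM in sham in the authors' deposited table, a log2 fold change of 3.19 (q = 1.19e-05).

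The co-receptor Cd14 hands lipopolysaccharide to TLR4 and its partner MD-2. Cd14 was the highest of the 8 genes in stroke, with a mean of 54.7 TPM in stroke and 5.87 TPM in sham in the authors' deposited table. Its log2 fold change was 3.22, and its q-value of 7.80e-20 was the smallest of the 8, ranking 94 among the 4071 genes in the authors' deposited table. The gene of MD-2, Ly96, rose as well, with 16.2 TPM in stroke and 2.68 TPM in sham (log2 fold change 2.60, q = 0.000522, authors' deposited table). The ratio of the mean TPM of Cd14 to that of Tlr4 was 27.9 in stroke and 27.4 in sham, with no error on either ratio.

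Among endosomal receptors Tlr13 and Tlr7 had the larger folds. Tlr13, which recognises bacterial ribosomal RNA in mice, had means of 15.5 TPM in stroke and 0.474 TPM in sham in the authors' deposited table. That deposited log2 fold change of 5.03 was the largest of the 8 genes (q = 1.88e-18), and with a pseudocount of 1 TPM it was 3.48, below the 3.79 of Tlr2. Among all genes listed higher, 86.0% had a smaller deposited log2 fold change. Tlr7, a sensor of single-stranded RNA, had means of 16.7 TPM in stroke and 0.784 TPM in sham (log2 fold change 4.41, q = 1.33e-08, authors' deposited table). Tlr9, the receptor for unmethylated CpG DNA, had 2.79 TPM in stroke and 0.420 TPM in sham (log2 fold change 2.73, q = 1.84e-09, authors' deposited table). The sham means of these 3 receptors, and of Tlr1 and Tlr4, were under 1 TPM, where the size of a fold is least certain. Tlr8, another endosomal RNA sensor, was at the floor of 0.0001 TPM that stands for no detection in sham and had 0.918 TPM in stroke (q = 0.0314, authors' deposited table). Tlr12, which binds profilin of protozoa in mice, had 1.24 TPM in stroke and 0.616 TPM in sham (log2 fold change 1.01, q = 0.0486, authors' deposited table).

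Myd88, the adaptor shared by these receptors and by interleukin 1 receptors, had the smallest deposited fold, an order that turns with a pseudocount of 1 TPM, where the log2 fold change was 1.35 for Myd88 and 1.29 for Tlr4. Its means were 24.6 TPM in stroke and 9.01 TPM in sham in the authors' deposited table, 2.72-fold higher (log2 fold change 1.45, q = 5.97e-06). Only 22.9% of all genes listed higher had a smaller log2 fold change. Summed mean TPM of the 6 receptors was 3.38 times the mean of Myd88 in stroke and 0.482 times in sham. Part of the Myd88 transcript lies opposite another gene: 11.3% of its annotated exon bases overlap exons of Acaa1a on the other strand, with the strand setting of the counting not given in the sources used here. The other 7 genes share no exon base with another gene in the GENCODE M21 annotation.

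The order of levels differed between the groups at the top and among the low genes. In stroke it ran Cd14, Tlr2, Myd88, Tlr7, Tlr13, Tlr1, Tlr9, Tlr4 from high to low, and in sham Myd88, Cd14, Tlr2, Tlr7, Tlr13, Tlr9, Tlr1, Tlr4. Whether neighbours in either order differ beyond their spread was not tested, since no value per sample was used. Of the summed TPM of the 6 receptors, Tlr2 made up 51.2% in stroke and 49.5% in sham, Tlr7 20.1% in stroke and 18.0% in sham, and Tlr13 18.6% in stroke and 10.9% in sham. The share of Tlr9 was 3.36% in stroke and 9.66% in sham, that of Tlr4 2.36% in stroke and 4.93% in sham, and that of Tlr1 4.36% in stroke and 6.96% in sham. Endosomal receptors together took 42.1% in stroke and 38.6% in sham.

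Markers of phagocytes moved with the 8 genes. Of 10 genes of homeostatic microglia, 9 were listed and all 9 rose, with summed means of 2644 TPM in stroke and 277 TPM in sham and a median log2 fold change of 2.47. Csf1r, the receptor that microglia and macrophages need to survive, had 271.6 TPM in stroke and 50.2 TPM in sham (log2 fold change 2.43, q = 1.85e-09, authors' deposited table). Tlr2, Tlr7 and Tlr13 had a larger log2 fold change than all 9 listed microglial genes, Tlr1 than 6, Tlr4, Tlr9 and Cd14 than 5 each, and Myd88 than 0. Of 10 genes of blood monocytes and macrophages, 8 were listed and all 8 rose, with summed means of 4151 TPM in stroke and 57.3 TPM in sham. Most of that sum was Lyz2, with 4079 TPM in stroke and 50.8 TPM in sham in the authors' deposited table, and the gene is also expressed by activated microglia. The monocyte chemokine receptor gene Ccr2 was near 0 in sham, with 1.86 TPM in stroke and 0.0714 TPM in sham (q = 0.000403, authors' deposited table).

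Markers of further cell types were counted in the same way. Each sum, here and in the paragraph above, covers only the listed genes of its list. Unlisted marker genes have no mean here, and genes are listed only if they differ. A sum therefore does not give the change of its whole list or of a cell type. Of 7 border-associated macrophage genes 6 were listed, 5 higher and 1, Lyve1, lower, and 4 rose. Summed means of the 6 were 65.8 TPM in stroke and 13.5 TPM in sham. Of 10 neutrophil genes 5 were listed, all higher, and 4 rose. The 5 summed to 84.6 TPM in stroke and 12.6 TPM in sham. Most of that sum was Csf3r, with 67.9 TPM in stroke and 7.48 TPM in sham in the authors' deposited table. Ly6g, which defines neutrophils, was not listed. Of 10 T and NK cell genes 7 were listed, all higher, and 3 rose. The 7 summed to 6.78 TPM in stroke and 1.12 TPM in sham, with Cd3d at the floor in sham. B cell and plasmacytoid dendritic cell genes had 2 of 8 that rose, Cd79b and Bst2, with 246.6 TPM in stroke and 28.6 TPM in sham, of which Bst2 is also an interferon-induced gene of many cells. Of 7 astrocyte genes 2 rose and 5 were not listed. The 2 summed to 2522 TPM in stroke and 415 TPM in sham. Most of that sum was Gfap, with 2453 TPM in stroke and 393 TPM in sham in the authors' deposited table. Of 7 endothelial genes 1, Cdh5, rose, with 14.0 TPM in stroke and 6.56 TPM in sham, and 6 were not listed. Of 9 thalamic neuron genes 6 fell, with 417 TPM in stroke and 1145 TPM in sham. In bulk tissue a change in the number of cells and a change in RNA per cell cannot be told apart, and the part of these cells in the rise of the 8 genes was not tested.

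**Figure D3:**
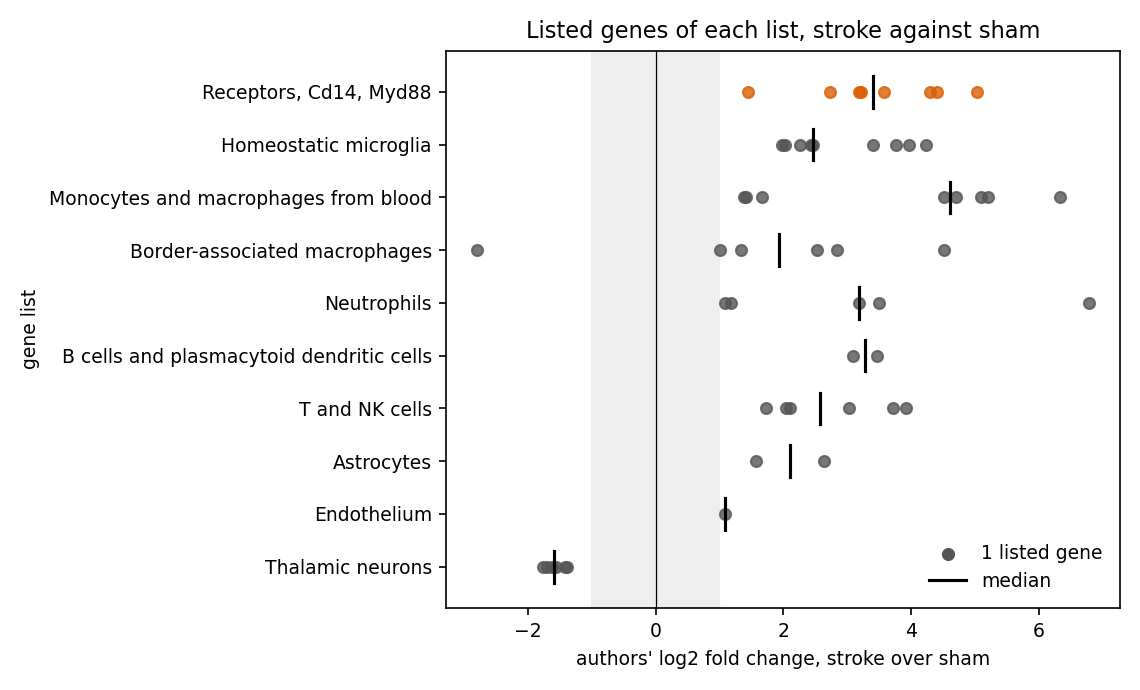
Log2 fold change of stroke over sham for each listed gene in the authors' table, by list, with a black bar at the list's median; the grey band from -1 to 1 holds no listed gene, and genes at the floor are left out. The receptors, Cd14 and Myd88 run from 1.45 to 5.03, and the listed homeostatic microglia genes have a median of 2.47.

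The wider pathway was taken in 8 lists by role, 132 genes in all with the 8 members. Without the members, 124 genes were left, of which 70 were listed in stroke against sham, 61 rose and 2 fell. Of the 70 listed genes 67 were higher, and the median log2 fold change of the 70 was 3.31. It was 2.34 for all 2469 genes listed higher, and 1.33 for all 4071 listed genes, which include those listed lower. Genes at the floor were entered at their deposited value. Of all 20804 genes adjusted, 9.67% were listed as higher with a q-value under 0.05 and 3.37% as lower. These shares also stand beside the marker counts above and the counts by role below. The Toll-like receptor list held 12 genes, of which 9 rose, the 6 members with Tlr6, Tlr8 and Tlr12, and Tlr3, Tlr5 and Tlr11 were not listed.

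Accessory proteins, which deliver ligands or process and transport the receptors, had 11 of 15 further genes that rose and 0 listed lower. Unc93b1, which escorts endosomal receptors out of the endoplasmic reticulum, had means of 365 TPM in stroke and 27.0 TPM in sham (log2 fold change 3.76, q = 4.29e-15, authors' deposited table). The lysosomal transporter gene Slc15a3 had 113 TPM in stroke and 3.11 TPM in sham (log2 fold change 5.19, q = 2.18e-28, authors' deposited table). Cd180, a relative of Tlr4 without a signalling domain, had 98.9 TPM in stroke and 0.964 TPM in sham (log2 fold change 6.68, q = 3.12e-27, authors' deposited table). Its partner gene Ly86 had 642.5 TPM in stroke and 16.4 TPM in sham (log2 fold change 5.29, q = 8.88e-15, authors' deposited table). Of the proteases that cleave endosomal receptors, Lgmn had 820.9 TPM in stroke and 126 TPM in sham, 6.51-fold higher (q = 3.09e-17, authors' deposited table). Both members of the pair Cd180 and Ly86 thus exceeded Tlr4, at 1.96 TPM, in mean level per length in stroke.

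Adaptors and the kinases next to them had 5 of 15 further genes that rose and 0 listed lower. Ticam2, which links TLR4 to the Myd88-independent branch, had 9.02 TPM in stroke and 0.259 TPM in sham (log2 fold change 5.12, q = 6.27e-19, authors' deposited table). Ticam1, the adaptor it recruits, had 19.2 TPM in stroke and 7.52 TPM in sham (log2 fold change 1.35, q = 0.000338, authors' deposited table). Irak4, the first kinase bound by MyD88, had 7.18 TPM in stroke and 1.66 TPM in sham (log2 fold change 2.11, q = 1.65e-08, authors' deposited table). The kinase gene Btk rose 15.1-fold and the phosphoinositide kinase adaptor gene Pik3ap1 13.5-fold in the authors' deposited table. The log2 fold changes of Ticam1 and Myd88 were the smallest of the 6 genes listed in this role.

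Kinases and transcription factors further down had 6 of 22 genes that rose and 2 that fell. Irf8, a transcription factor of microglia and macrophages, had 111.8 TPM in stroke and 8.68 TPM in sham (log2 fold change 3.69, q = 8.18e-20, authors' deposited table). Ikbke rose 8.18-fold, Irf5 4.28-fold and Nfkb2 3.21-fold in the authors' deposited table. Those that fell were Fos, with 7.89 TPM in stroke and 44.7 TPM in sham, and Mapk8, with 6.61 TPM in stroke and 14.1 TPM in sham, in the authors' deposited table. Both are also abundant in neurons. Inhibitors had 8 of 20 genes that rose and 1, Tollip, listed lower with 44.8 TPM in stroke and 92.3 TPM in sham (q = 0.124, authors' deposited table). Irak3, a kinase relative that blocks the Myd88 branch, had 2.97 TPM in stroke and 0.853 TPM in sham (q = 0.000128, authors' deposited table). Cd300lf rose 21.7-fold, Socs3 4.17-fold and Zc3h12a, which degrades cytokine messages, 3.23-fold in the authors' deposited table. The name Lilrb4a, an inhibitory myeloid receptor, stands on 2 identifiers that both rose, with 174 and 32.0 TPM in stroke and 0.805 and 0.102 TPM in sham, in the authors' deposited table.

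Genes that Toll-like receptor signalling is known to induce had 12 of 20 members that rose and 3 more listed higher. The chemokine genes Ccl3 and Ccl4 rose 76.9-fold and 44.8-fold, the costimulatory gene Cd86 15.4-fold and the adhesion gene Icam1 5.78-fold in the authors' deposited table. Il1b had 1.68 TPM in stroke and 0.120 TPM in sham (log2 fold change 3.81, q = 2.19e-06, authors' deposited table). Il6, Il12b, Nos2, Ifnb1 and Cxcl2 were not listed. Of 8 further genes of the interleukin 1 receptor family and its ligands, which share Myd88 or the TIR domain, 3 rose: Il1rl2 12.6-fold, Il18rap 20.2-fold and Il1r1 2.02-fold in the authors' deposited table. Il18rap had a sham mean of just 0.0161 TPM in the authors' deposited table, so its fold is a rough figure.

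**Figure D4:**
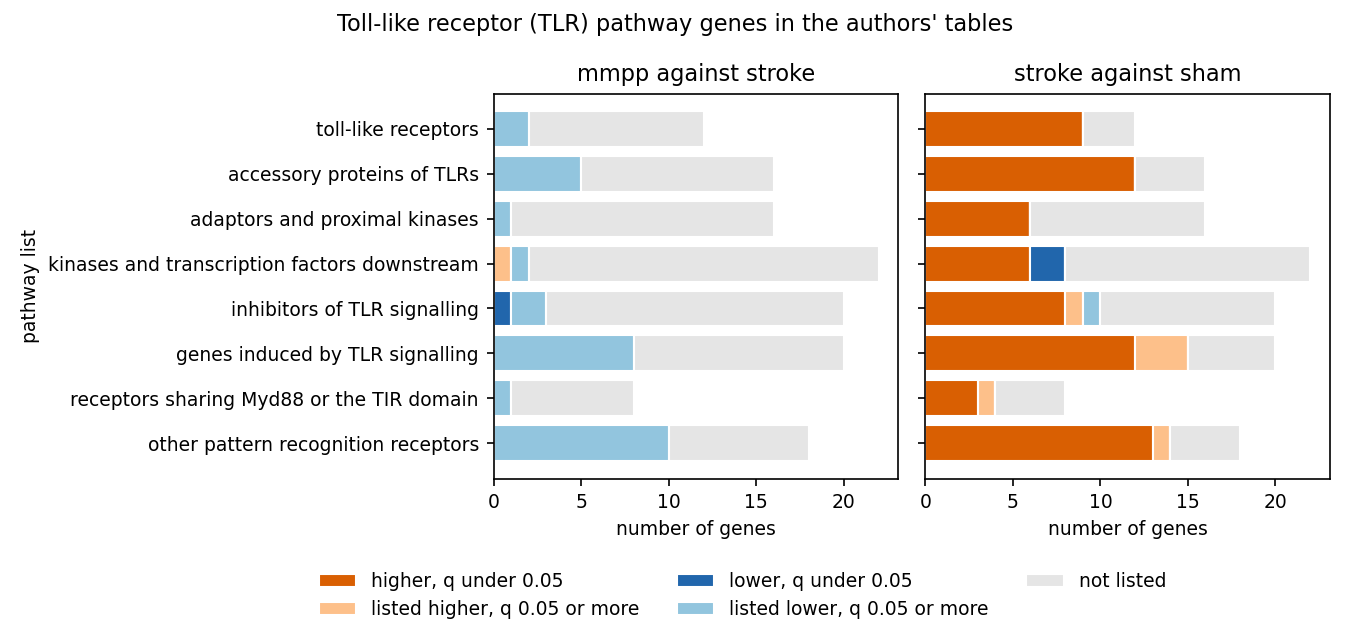
Number of genes of each pathway list that were higher or lower with a q-value under 0.05, listed only, or not listed, for mmpp against stroke (left) and stroke against sham (right). In stroke against sham 9 of 12 Toll-like receptor genes were higher with a q-value under 0.05, and in mmpp against stroke 2 of 12 were listed lower.

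The authors' own annotation gave a further view of the pathway. In their KEGG assignment to Toll-like receptor signalling, 38 genes were listed in stroke against sham, 7 of them members and Tlr13 not among them. Of the other 31, 26 were listed higher and 5 lower, and 24 rose and 3 fell. The median log2 fold change of the 31 was 2.10. Their GO term for the innate immune response stood on all 8 members and on 127 other listed genes. Of these 127, 111 rose and 3 fell, with a median log2 fold change of 2.77. Among all 4071 listed genes, 2012 rose and 701 fell, with a median log2 fold change of 1.33.

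In mmpp against stroke 0 of the 8 genes had a q-value under 0.05 by the authors' test, the tool not being given here, and 2 were listed at an unadjusted p under 0.05. Of 19616 genes adjusted, 0.0306% were listed as lower with a q-value under 0.05, and 3.86% were listed as lower at all. Tlr4 had mean levels of 0.640 TPM in mmpp, 1.96 TPM in stroke and 0.214 TPM in sham in the authors' deposited tables. Its log2 fold change in mmpp against stroke was -1.61 (q = 0.700, authors' deposited table). Tlr9 had mean levels of 1.19 TPM in mmpp, 2.79 TPM in stroke and 0.420 TPM in sham in the authors' deposited tables, with a log2 fold change of -1.23 in mmpp against stroke (q = 0.780, authors' deposited table). The mmpp mean was 2.99 times the sham mean for Tlr4 and 2.83 times for Tlr9, a pair that was not compared in the authors' tables and has no test. Both comparisons use the same stroke samples, with identical stroke means for the 815 genes in both tables. The other 6 genes were not in the mmpp table, so their mmpp levels were not analysed here, and this does not show that they were equal to stroke.

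Of the 124 pathway genes that are not members, 29 were listed lower and 1, Fos, was listed higher in mmpp against stroke, and 1 fell. It was 1 of the identifiers named Lilrb4a, with 18.0 TPM in mmpp and 174 TPM in stroke (log2 fold change -3.27, q = 0.0344, authors' deposited table). The other identifier of that name was only listed lower, with 5.87 TPM in mmpp and 32.0 TPM in stroke (q = 0.263, authors' deposited table). Of partners of the receptors, Cd180 was listed lower with 18.7 TPM in mmpp and 98.9 TPM in stroke (q = 0.139, authors' deposited table), and Ly86 with 215 TPM in mmpp and 642.5 TPM in stroke (q = 0.574, authors' deposited table). Cd36, a fatty acid and lipoprotein receptor that aids TLR2, was listed lower with 4.48 TPM in mmpp and 17.8 TPM in stroke (q = 0.730, authors' deposited table), as were the protease genes Ctsl and Ctss. Irak4 was at 3.53 TPM in mmpp and 7.18 TPM in stroke (q = 0.769), Ikbke at 6.03 TPM in mmpp and 16.0 TPM in stroke (q = 0.590), and Irak3 at 1.32 TPM in mmpp and 2.97 TPM in stroke (q = 0.726), in the authors' deposited table. Cd300lf was at 9.44 TPM in mmpp and 25.9 TPM in stroke (q = 0.726, authors' deposited table). Il1rl2, of the interleukin 1 receptor family, was at 0.624 TPM in mmpp and 1.96 TPM in stroke (q = 0.551, authors' deposited table). Of induced genes, 8 of 20 were listed lower: Tnf, Il1a, Il1b, Ccl2, Ccl3, Ccl4, Ptgs2 and Acod1. Il1b had 0.708 TPM in mmpp and 1.68 TPM in stroke (q = 0.823, authors' deposited table).

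Of the phagocyte markers listed in mmpp against stroke, Lyve1 was higher and the others were lower. Among homeostatic microglia genes these were Sall1 and Gpr34, with summed means of 21.9 TPM in mmpp and 58.1 TPM in stroke. Among blood monocyte genes they were Ccr2, Itga4 and F13a1, with 3.19 TPM in mmpp and 13.8 TPM in stroke. Border-associated macrophage genes had 3 listed lower, Mrc1, Cbr2 and again F13a1, and Lyve1 listed higher with 0.275 TPM in mmpp and 0.0486 TPM in stroke (q = 0.793, authors' deposited table). Their summed means were 7.97 TPM in mmpp and 23.4 TPM in stroke. Of neutrophil genes Mmp8 was listed lower, with 0.708 TPM in mmpp and 5.35 TPM in stroke (q = 0.158, authors' deposited table). Of T and NK cell genes Cd4 was listed lower, while the thalamic neuron genes Slc17a6 and Gbx2 were listed higher. Of the marker genes listed in this comparison 0 had a q-value under 0.05. Their part in the lower means of Tlr4 and Tlr9 was not tested.

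The genes nearest to Tlr4 and Tlr9 were found by the Euclidean distance over both deposited log2 fold changes, among 660 genes left of those listed in both tables once members, clone names and genes with a mean at the floor were taken out. Nearest to Tlr4 were Maf, at a distance of 0.0526, and Xkr5, at 0.0630. For Tlr9 they were H2-Oa, at 0.00334, and Tpx2, at 0.00468. A distance over 2 values, from 3 group means, places many genes close together.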

How the data were processed

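Total RNA was isolated by TRIzol and made into SMARTER mRNA libraries for Illumina sequencing, per the labels' protocols. Per the submitters' processing notes, the tools were TopHat2 2.0.12, Bowtie2 2.2.3 and HTSeq 0.6.0 and the build GRCm39, with no role stated. Per the file headers, the authors deposited for each listed gene the mean TPM of both groups, their log2 fold change, and p-values before and after adjustment (q-values). The deposited log2 fold change equalled the log2 ratio of mean TPM to within 5.35e-11, so no pseudocount had been added.

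The members and lists were chosen with earlier results of these data known. No test was refitted, since the tables used hold no value per library, and the foreseen fit by edgeR or limma was not made. The number of genes adjusted was recovered as the smallest number that makes p times number over q a whole rank (tolerance 0.001) for nearly as many genes as any other number, a step tested on simulated tables. That number gave a whole rank for 25.2% of genes listed for mmpp with a q-value under 1, and for 80.4% of those listed for stroke against sham. Counting also genes whose q-value another listed gene shares, as adjustment gives to ties, the shares were 99.8% for mmpp and 96.4% for stroke against sham. Sharing a q-value does not depend on the number recovered, so only the whole-rank shares bear on that number. The simulated tables held more genes with small p-values than the mmpp comparison did. Named genes were the 8 members, up to 4 further genes of each list with the smallest q-value, list genes listed for mmpp and the nearest genes. Others, such as Ly96 and Il1b, were named for their role, and marker lists are given mainly by counts and by sums over listed genes. One marker gene listed for mmpp is not reported here. List symbols were matched to gene identifiers, with 1 (Tasl) unmatched. Transcripts were cut into windows of 50 bases from GENCODE M21 (GRCm38), which was used for names and overlaps only. Python 3.11.15 and pandas 2.3.3 were used.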

Additional observations from a re-analysis of the deposited data

How the results depend on the processing

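All 8 genes had a q-value under 0.01 in stroke against sham, and 7 also differed by 2 or more on the log2 scale. With a mean of at least 1 TPM asked for in both groups, 3 of the 8 remained for stroke against sham (Tlr2, Cd14 and Myd88), and of 69 pathway genes that rose, 36 did. That filter removes genes by their low sham mean. For mmpp against stroke the count of 0 became 2 when listing by the authors alone was asked for, and was 0 at a q-value under 0.01, under 0.1, with the fold limit and with the TPM filter. A pseudocount of 1 TPM left log2 fold changes between 1.29 and 3.79 for stroke against sham, with Tlr4 in place of Myd88 as the smallest and Tlr2 in place of Tlr13 as the largest. For mmpp against stroke it left -0.85 for Tlr4 and -0.79 for Tlr9, under the listing limit of 1. Unlisted genes shifted by -0.17 on the log2 scale in stroke against sham, as listed genes took a larger share of TPM. With that shift removed, the 8 genes ran from 1.61 to 5.20. None of these settings could turn a direction here, so the directions were not put to a test. No paired analysis was possible because the tables used hold group means only, and for the same reason leaving out a replicate was not run.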

Other observations

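Of 18 pattern recognition receptor genes outside the Toll-like family, 13 rose in stroke against sham and 1, Marco, was listed higher. Msr1, a scavenger receptor gene, had 25.7 TPM in stroke and 0.0948 TPM in sham (q = 4.20e-25, authors' deposited table), a sham mean too near 0 to fix the size of its fold. The inflammasome sensor gene Nlrp3 had 5.27 TPM in stroke and 0.536 TPM in sham (log2 fold change 3.30, q = 1.83e-11, authors' deposited table). The fungal glucan receptor gene Clec7a had mean levels of 100.9 TPM in stroke and 1.84 TPM in sham (log2 fold change 5.78, q = 2.29e-11, authors' deposited table). Aim2, a sensor of cytosolic DNA, had 16.7 TPM in stroke and 1.07 TPM in sham (log2 fold change 3.96, q = 9.33e-09, authors' deposited table), and Tmem173, the adaptor STING, had 24.6 TPM in stroke and 4.02 TPM in sham (log2 fold change 2.61, q = 5.87e-14, authors' deposited table). In mmpp against stroke 10 of the 18 were listed lower and 0 higher, namely Msr1, Nlrp3, Nlrc4, Aim2, Mb21d1, Clec4d, Clec4e, Clec4n, Clec7a and Fpr1, and none of these had a q-value under 0.05 by the authors' test. Msr1 was at 5.76 TPM in mmpp and 25.7 TPM in stroke (q = 0.510), and Nlrp3 at 2.16 TPM in mmpp and 5.27 TPM in stroke (q = 0.700), in the authors' deposited table. Aim2 was at 4.61 TPM in mmpp and 16.7 TPM in stroke (q = 0.314, authors' deposited table), Clec7a at 34.0 TPM in mmpp and 100.9 TPM in stroke (q = 0.791, authors' deposited table). Fpr1, a receptor for formylated peptides, was listed in this comparison alone, at 0.0686 TPM in mmpp and 0.702 TPM in stroke (q = 0.510, authors' deposited table).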
